A study of Mus musculus with 26 samples.

Results

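The 37 genes described here act in S phase and mitosis, the stages of the cell cycle in which DNA is copied and chromosomes are divided. They were taken from a list of member genes given by name, and all 37 were matched by symbol and Ensembl identifier among the 57186 genes of the largest deposited count table. By role they comprised 21 mitosis genes, 11 genes of DNA replication, 3 genes of nucleotide synthesis and 2 transcriptional regulators. RNA was measured by poly(A) RNA-seq in 26 samples, each of XY gonads of E13.5 mouse embryos dissected free of the mesonephros. Of these, 3 were wild type (WT) and 4 were a knockout of Meis1 (Meis1 KO). The others carried 1 of 4 deletions labelled with the name of Fgf9: 3 carried Δ306, 4 Δ104, 6 Δ93 and 6 Δ225. The labels give no deletion boundaries, zygosity, litters, parents or dates, and no Cre or transgene. Those of the Δ93, Δ104, Δ225 and Meis1 KO groups are labelled biological replicates, while those of WT and Δ306 are labelled replicates only, so p-values measure the spread between these samples.

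FGF9 is a secreted growth factor that the fetal testis makes, and it is known to promote proliferation of gonadal cells and Sertoli cell development in the XY gonad. Cells load the MCM helicase on replication origins before S phase, and make nucleotides and copy DNA in S phase, with genes under E2F transcription factors. Genes of mitosis are switched on later in the cycle by FOXM1 and B-MYB bound to the MuvB complex, which in resting cells instead joins with RB-family proteins and represses the same promoters. The RNA of these genes in a bulk sample therefore follows the share of dividing cells as well as the level per cell, and in bulk gonads fewer cells of a type and less RNA per cell cannot be told apart.

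The promoters of the 2 large role groups carried different letters. RefSeq promoter windows of build GRCm38.p6, from 250 bases before to 50 after each gene's start (300 bases), were found for 30 of the 37 genes, with 2 windows for Mcm7. The 7 genes without a window were Aurkb, Tpx2, Ccna2, Kif20a, Mcm4, Gins2 and Foxm1. The search covered 3 motifs on both strands: the cell-cycle homology region bound by MuvB (CHR, written TTTGAA or TTCGAA), the CCAAT box bound by NF-Y (CCAAT), and an E2F site (TTTCGCGC, TTTGGCGC, TTTCCCGC or TTTGCCGC). A CHR match lay in 13 of 17 windows of mitosis genes and 3 of 10 of replication genes, against 19.2% of all 32851 promoter windows of the same length. CCAAT lay in 15 of 17 and 8 of 10, against 37.4% of all windows. An E2F match lay in 1 of 17 mitosis windows, that of Cdk1, and in 6 of 10 replication windows, against 2.26% of all. Some matches overlap one another, and a match describes letters in a window, not a bound site. To show both kinds, 4 promoters are printed over the 250 bases before the start, all read 5′ to 3′ on the minus strand of the genome, with matches to any of the 3 motifs on either strand in capitals: those of Ccnb1 (chr13:100786487-100786736) and Cdk1 (chr10:69352913-69353162), which encode cyclin B1 and its kinase, and of Mcm2 (chr6:88898781-88899030) and Mcm6 (chr1:128359706-128359955), which encode helicase subunits. The pair Cdk1 and Mcm6 was added after values and matches were seen.
Ccnb1: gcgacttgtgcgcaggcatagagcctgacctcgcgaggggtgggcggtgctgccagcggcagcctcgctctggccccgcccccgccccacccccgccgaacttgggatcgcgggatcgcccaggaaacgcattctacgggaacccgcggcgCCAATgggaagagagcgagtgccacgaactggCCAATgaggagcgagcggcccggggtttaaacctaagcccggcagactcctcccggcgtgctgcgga
Cdk1: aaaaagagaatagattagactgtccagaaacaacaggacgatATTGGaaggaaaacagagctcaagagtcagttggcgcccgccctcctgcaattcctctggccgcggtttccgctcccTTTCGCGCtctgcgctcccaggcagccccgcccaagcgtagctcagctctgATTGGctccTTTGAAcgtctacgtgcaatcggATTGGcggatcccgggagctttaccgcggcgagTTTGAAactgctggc
Mcm2: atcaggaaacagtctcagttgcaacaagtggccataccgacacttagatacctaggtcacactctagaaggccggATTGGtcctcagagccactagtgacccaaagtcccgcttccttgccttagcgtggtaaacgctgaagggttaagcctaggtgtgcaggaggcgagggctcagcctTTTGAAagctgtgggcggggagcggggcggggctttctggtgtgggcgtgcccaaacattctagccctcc
Mcm6: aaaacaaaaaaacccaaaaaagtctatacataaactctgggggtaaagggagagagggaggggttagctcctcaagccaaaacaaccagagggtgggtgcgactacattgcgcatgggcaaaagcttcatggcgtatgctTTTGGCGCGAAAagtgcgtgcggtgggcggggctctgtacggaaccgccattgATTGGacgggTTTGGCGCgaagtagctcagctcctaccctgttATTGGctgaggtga
Cdk1 carried a pair of CHR matches, 71 to 66 and 15 to 10 bases before its start, beside CCAAT boxes on the opposite strand. Ccnb1 held 2 CCAAT boxes and none of the searched CHR letters. Mcm6 held 3 E2F matches, of which 2 overlap. Mcm2 held no E2F match but a CHR match, 70 to 65 bases before its start.

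Libraries held 11582619 to 53392393 counts in the table with all deletions and 35468633 to 51732897 in the table with Meis1 KO. Fgf9 stood at 9.53 ± 0.32 CPM (a gene's count scaled to a common library size, SD, n = 3) in WT, 2.48 ± 0.41 in Δ306 (n = 3), 3.08 ± 0.86 in Δ93 (n = 6), 4.85 ± 1.76 in Δ104 (n = 4) and 7.01 ± 4.73 in Δ225 (n = 6). By edgeR's test, Fgf9 fell in Δ306 (log2 fold change -1.94, adjusted p 0.0148, lost without Δ306 replicate 2 or 3, where the highest was 0.0704) and in Δ93 (-1.63, adjusted p 0.00532), while Δ104 (-0.98, adjusted p 0.259) and Δ225 (-0.45, adjusted p 0.535) did not pass. The Δ225 libraries had a median of 5.43 CPM of Fgf9, with 16.5 in replicate 3. With 1 library left out, the Δ225 estimate ran from -0.89, without replicate 3, to -0.30, and never passed. Meis1 fell from 78.4 ± 26.5 CPM in WT (n = 3) to 0.44 ± 0.21 in Meis1 KO (n = 4). Several libraries stood apart. In WT replicate 1 all 6 pan-germ-cell markers were lower than in both other WT libraries, with a summed level of 19.2 CPM against 515 and 759, although none was at 0. The 4 Y-linked genes summed to 31.2 to 77.2 CPM in WT but to under 1 in 10 of the lowest WT value in 7 libraries (1 of Δ306, 1 of Δ104, 1 of Δ225 and 4 of Δ93), while Xist was at most 6.42 CPM in any library. Y-linked sums below WT were not limited to these 7 libraries. They were 0.141 to 11.7 CPM in Δ306, 0.0265 to 6.6 in Δ93, 1.92 to 36.2 in Δ104 and 0.199 to 20.5 in Δ225. In the Meis1 table the sums were 3.67 to 15.8 CPM in Meis1 KO against 33.3 to 81.6 in WT. Without the 7 libraries low in Y-linked RNA, 41 of the 42 single-gene calls examined that way in the table of all deletions were lost (adjusted p 0.0563 to 0.614), Fgf9 in Δ306 and Δ93 among them. The call kept was that of Cdkn1b in Δ225 against Δ93. Per the submitters' processing notes, the WT and Δ306 samples list tools that the notes for the later groups do not list, so genotype and processing cannot be told apart in comparisons of Δ225, Δ104, Δ93 or Meis1 KO with WT, or of Δ225, Δ104 or Δ93 with Δ306.

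Taken by role, the mitosis genes of 15 and the replication genes of 16 of the 19 deletion libraries lay inside the range of the 3 WT libraries, while the 2 regulators lay below it in 12 of 19. The low end of the mitosis and replication ranges was WT replicate 1 alone. For both of these roles all 19 deletion libraries lay below WT replicates 2 and 3. As a summary, the level of a role group in a library was taken as the mean over its genes of log2(CPM + 1), minus the mean of the 3 WT libraries. The mitosis genes stood at -0.39, 0.19 and 0.20 in the WT libraries, and replicate 1 was the low one. They stood at -0.32 ± 0.08 in Δ306 (SD, n = 3), -0.44 ± 0.36 in Δ93 (n = 6), -0.18 ± 0.11 in Δ104 (n = 4) and -0.08 ± 0.14 in Δ225 (n = 6). Δ225 replicate 1, at 0.11, was the sole deletion library above the WT mean. WT replicate 1 was nevertheless lower than all but 4 of the 19 deletion libraries, the 4 being Δ306 replicate 3, at -0.40, and Δ93 replicates 2, 4 and 5, at -0.49, -0.91 and -0.82. Replication genes stood at -0.05 ± 0.09 in Δ306, -0.12 ± 0.21 in Δ93, -0.25 ± 0.15 in Δ104 and -0.35 ± 0.30 in Δ225, with -0.42, 0.20 and 0.22 in WT. The 2 regulators, Foxm1 and E2f1, stood at -0.27 ± 0.03 in Δ306, -0.28 ± 0.23 in Δ93, -0.34 ± 0.17 in Δ104 and -0.29 ± 0.39 in Δ225, with -0.19, 0.12 and 0.07 in WT. The 2 genes differed: Foxm1 lay below WT in every deletion library, while E2f1 overlapped WT in every deletion. The groups were thus ordered differently for the 2 large roles, Δ93 being lowest for mitosis genes and Δ225 for replication genes, and neighbours in either order overlapped.

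**Figure D1:**
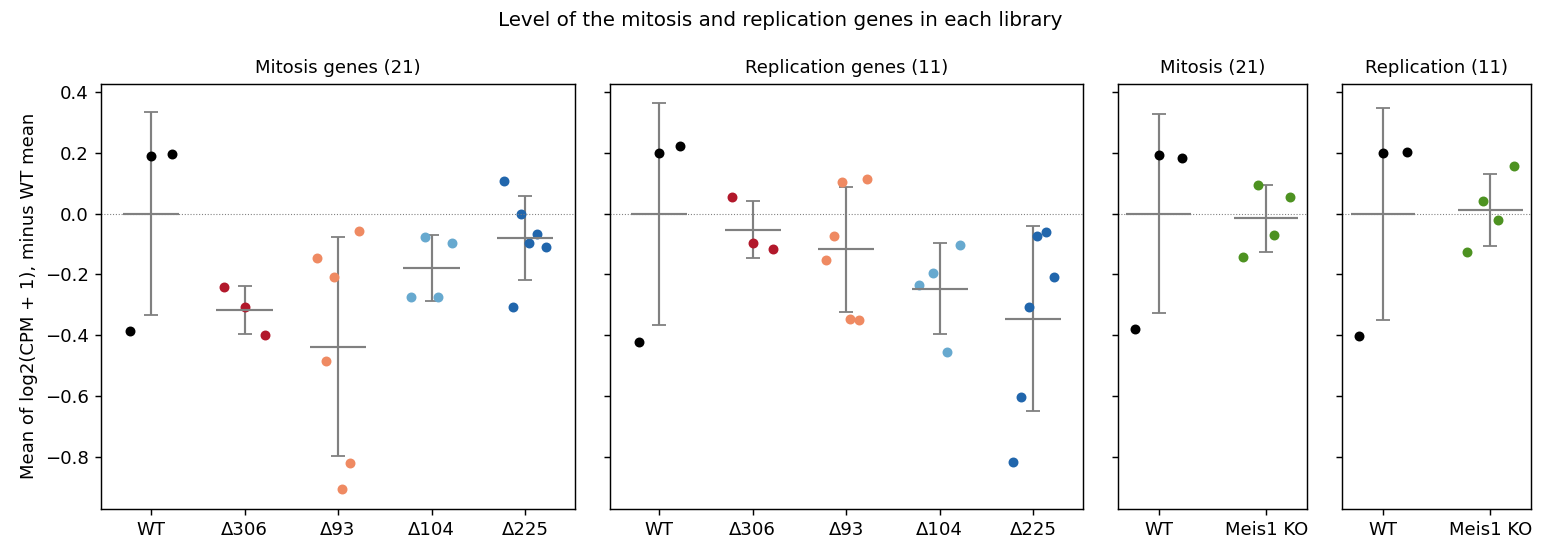
Level of the 21 mitosis and 11 replication genes in each library (points), as the mean of log2(CPM + 1) minus the mean of the WT libraries, with group mean ± SD in grey; the panels on the right are the Meis1 table. WT replicate 1 lies near -0.4 in each panel, and the lowest mitosis levels are those of 2 Δ93 libraries.

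Against WT, Δ93 was the deletion in which single genes of the set were called, and all were lower: 5 of 37 at an adjusted p under 0.05 (edgeR quasi-likelihood test, Benjamini-Hochberg over 22941 genes). Of all genes 14.1% were called in either direction and 6.84% were called lower. The 5 were 4 mitosis genes, Aurkb, Bub1b, Cdk1 and Tpx2, and the regulator Foxm1; none of the 11 replication or 3 nucleotide genes was called. Of the 37 genes 31 had a lower estimate, with a median log2 fold change of -0.32 against 0.06 over all genes tested. The median was -0.51 over the mitosis genes, -0.15 over replication and -0.20 over nucleotide synthesis, each beside a median SE of 0.15 to 0.22. WT and Δ93 libraries did not overlap for 3 of the 37 genes, all lower, where 12.5% of all genes tested showed the same.

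Aurkb (chr11:69045647-69051664, plus strand) encodes aurora kinase B, the kinase of the chromosomal passenger complex that corrects chromosome attachments. Its level was 71.4, 87.5 and 90.6 CPM in WT, and 31.1, 44.5 and 56.4 CPM as lowest, median and highest of the 6 Δ93 libraries, which gave -0.91 on the log2 scale (SE 0.23, adjusted p 0.012). All 6 Δ93 libraries lay below all 3 WT libraries. Bub1b (chr2:118598211-118641591, plus strand) encodes the spindle checkpoint protein BUBR1. It stood at 128, 208 and 213 CPM in WT and at 74.9, 110 and 152 (lowest, median, highest) in Δ93, a change of -0.71 (SE 0.19, adjusted p 0.0152). WT replicate 1, at 128, lay inside the Δ93 range.

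Cdk1 (chr10:69335146-69352938, minus strand), the kinase that drives entry into mitosis and whose promoter with its pair of CHR matches is printed above, stood at 104.2, 142 and 135 CPM in WT and at 62.7, 82.4 and 104.2 (lowest, median, highest) in Δ93. Its log2 fold change was -0.62 (SE 0.17, adjusted p 0.0226), and the highest Δ93 library reached the lowest WT library to within rounding. Tpx2 (chr2:152847964-152895321, plus strand), a spindle assembly factor that activates aurora A, stood at 173, 247 and 240 CPM in WT and at 111, 152 and 184 in Δ93, with a change of -0.58 (SE 0.17, adjusted p 0.0267). The highest Δ93 library passed WT replicate 1. Foxm1 (chr6:128362967-128376146, plus strand) encodes the forkhead factor that activates mitosis genes. It stood at 93.02, 102 and 98.4 CPM in WT and at 44.9, 71.7 and 77.2 in Δ93, a change of -0.57 (SE 0.17, adjusted p 0.0283). For Foxm1 WT replicate 1 was close to its group, and no library of any deletion reached the lowest WT value.

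**Figure D2:**
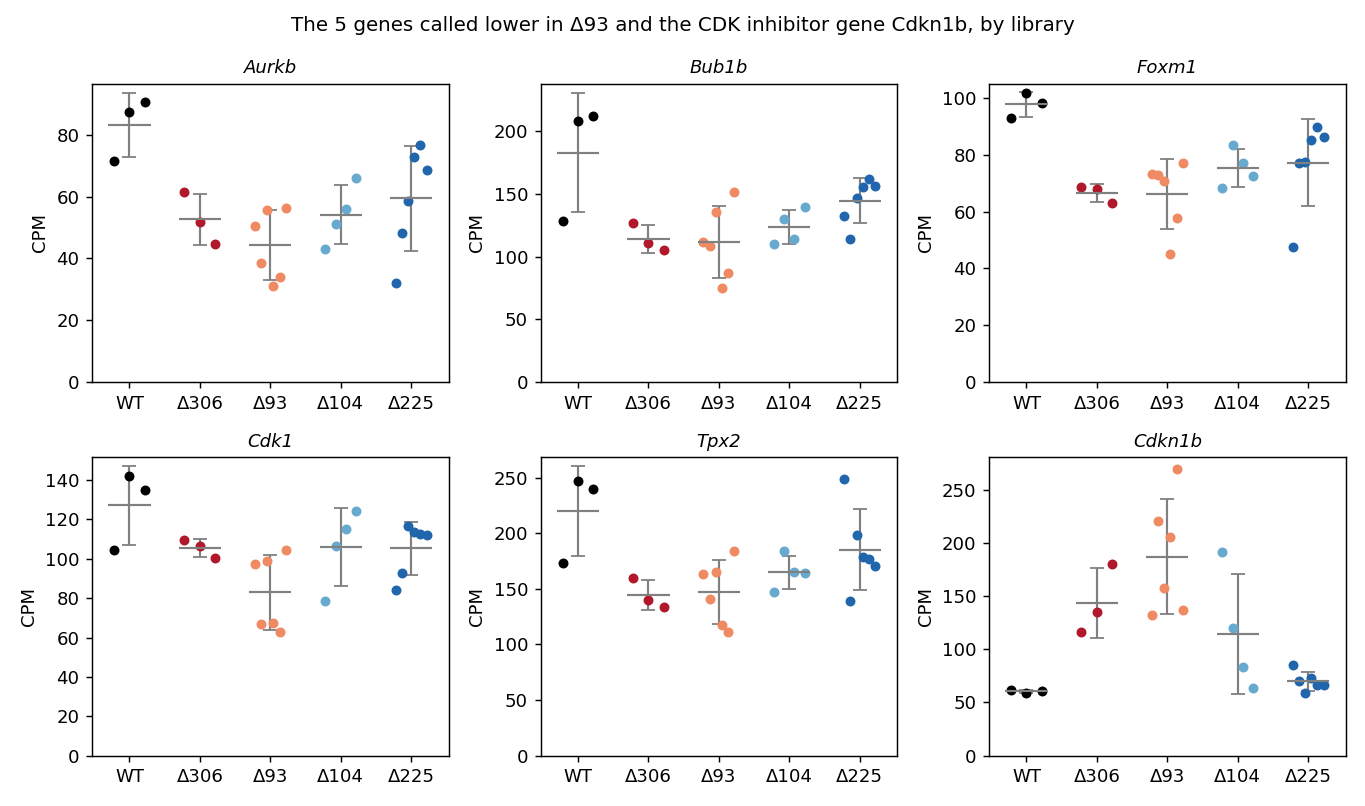
CPM of the 5 genes called lower in Δ93 against WT and of the CDK inhibitor gene Cdkn1b in every library (points) of WT and the 4 deletions, with group mean ± SD in grey; each axis starts at 0. Aurkb and Foxm1 in Δ93 lie below all 3 WT libraries, and Cdkn1b lies at 59.2 to 62.1 in WT against 132 to 270 in Δ93.

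All 5 Δ93 calls depended on WT replicates 2 and 3, and those of Foxm1 and Tpx2 also on the 2 lowest Δ93 libraries. Without WT replicate 2, or without WT replicate 3, no gene of the set was called; Aurkb then had adjusted p 0.053 and 0.058. Without Δ93 replicate 4 or replicate 5 the count was 3, with Foxm1 and Tpx2 lost; without WT replicate 1 it was 5, with Foxm1 lost and Plk1 gained. Without the 7 libraries low in Y-linked RNA, which leaves 2 Δ93 libraries, 0 members and 9 of all genes were called, and the median over the members was -0.32. Within Δ93, replicate 4 was the lowest library for 23 of the 37 genes and replicate 5 for 11. Replicate 4 also had the highest summed erythroid markers of its group, 54900 CPM against 4490 to 41400, and replicate 5 had 6770. In Δ93 the summed pan-germ-cell markers were 559 to 1020 CPM (WT 19.2 to 759), meiotic germ-cell markers 215 to 1300 (WT 10.8 to 49.5), Sertoli markers 252 to 1220 (WT 2670 to 3120) and pre-granulosa markers 430 to 1090 (WT 64.4 to 112). The part of these cell types in the result was not tested.

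In Δ306, where Fgf9 was lowest, no gene of the set was called at an adjusted p under 0.05 in the fit of all deletions, in which 6.43% of all genes were called in either direction. At an unadjusted p under 0.05 there were 8 of 37, and 21.9% of all genes tested. The lowest p values were those of Bub1b, at -0.68 (SE 0.22, adjusted p 0.0713), Tpx2, at -0.61 (SE 0.20, adjusted p 0.0746), and Foxm1, at -0.56 (SE 0.20, adjusted p 0.0949). Of the 37 genes 29 had a lower estimate, with a median of -0.22 against 0.08 over all genes. The mitosis genes had a median of -0.33, and the 3 nucleotide genes one of 0.07.

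Foxm1 stood at 68.5, 68.0 and 62.9 CPM in the Δ306 libraries, below every WT library. Tpx2 stood at 160, 140 and 134, and Bub1b at 127, 111 and 105 against 128 in WT replicate 1. Of the 37 genes 7, namely 6 of mitosis and Foxm1, were lower in all Δ306 than in all WT libraries, while 18.4% of all genes tested showed the same. Pcna, the sliding clamp of DNA polymerase, and Gins2, a subunit of the replicative helicase, were higher in all 3 Δ306 than in all 3 WT libraries: 171, 173 and 170 CPM for Pcna against 86.9 to 154, and 42.1, 38.5 and 38.4 for Gins2 against 29.9 to 34.9. Of all genes tested 19.2% were higher without overlap, and neither gene passed the test.

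The count in Δ306 depended on the fit. DESeq2 called 2 genes, Foxm1 and Bub1b, where it called 11.8% of all genes. EdgeR on Δ306 and WT alone called 6 (Foxm1, Aurkb, Tpx2, Plk1, Bub1b and Cenpe) and 17.5% of all genes. The first deposited table, counted separately, gave 3 (Cenpe, Foxm1 and Aurkb) and 18.8% of all. Without WT replicate 1 alone, Bub1b was called at -0.91 (adjusted p 0.043), with 2.25% of all genes called. With WT replicate 1, Δ225 replicate 1 and Δ93 replicate 4 left out together, an alternative chosen after seeing the data, 8 were called lower, and 7.95% of all genes in either direction. Among the 8 were Plk1, the polo kinase of mitosis, at -0.91 (adjusted p 0.026) and Kif20a, a kinesin of cytokinesis, at -0.70 (adjusted p 0.031). Pan-germ-cell sums were 383 to 813 CPM in Δ306, near those of WT replicates 2 and 3. Other cell-type markers moved with Δ306: Sertoli markers summed to 239 to 751 CPM (WT 2670 to 3120), fetal Leydig markers to 39.8 to 91.3 (WT 902 to 1550), pre-granulosa markers to 378 to 737 (WT 64.4 to 112) and meiotic germ-cell markers to 133 to 320 (WT 10.8 to 49.5). The part of these cell types in the Δ306 values was not tested.

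In Δ104 and in Δ225 no gene of the set was called against WT, where 0.061% and 0.209% of all genes were called. Of the 37 genes 31 had a lower estimate in Δ104 (median -0.20) and 28 in Δ225 (median -0.20), beside medians of 0.06 and 0.04 over all genes. In Δ104 the lowest p values were those of Bub1b, at -0.57 (SE 0.21, adjusted p 0.224), Aurkb, at -0.62 (SE 0.25, adjusted p 0.258), and Tpx2, at -0.42 (SE 0.19, adjusted p 0.295). In Δ225 they belonged to replication genes: Mcm3, a helicase subunit, at -0.48 (SE 0.19, adjusted p 0.24), Gins2 at -0.63 (SE 0.27, adjusted p 0.276), and Cdc6, the factor that loads the helicase, at -0.39 (SE 0.17, adjusted p 0.288). Foxm1 stood at 68.2, 83.6, 77.0 and 72.4 CPM in Δ104 replicates 1 to 4, and at 47.6, 81.3 and 89.8 (lowest, median, highest) in Δ225. Both ranges lie below WT, as did 9.4% of all genes in Δ104 and 4.9% in Δ225. These comparisons share the WT libraries with those of Δ306 and Δ93, so each WT library enters all 4.

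**Figure D3:**
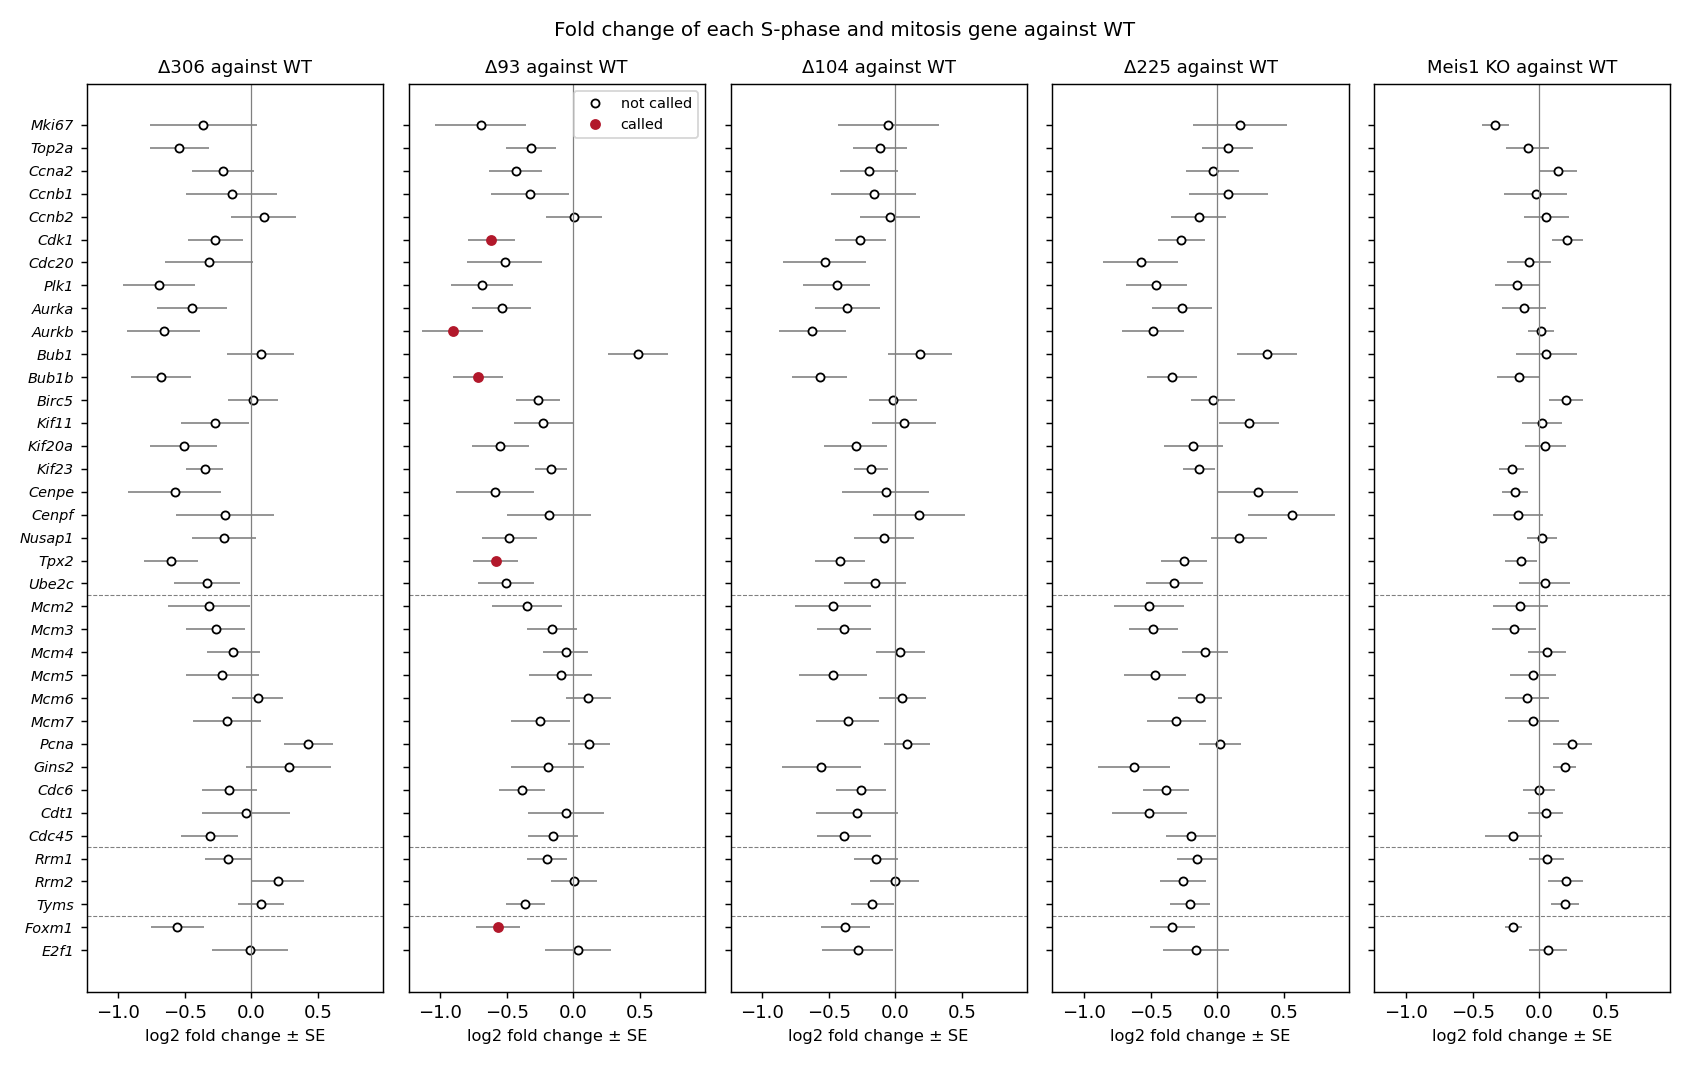
Log2 fold change ± SE against WT of each of the 37 genes in the 4 deletions and in Meis1 KO, with filled points for an adjusted p under 0.05; dashed lines part mitosis, replication, nucleotide synthesis and regulators, from top to bottom. Filled points occur in Δ93 only: Cdk1, Aurkb, Bub1b, Tpx2 and Foxm1.

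The deletions were also compared with each other directly, where WT enters only through the spread estimated over all groups. Δ225 against Δ93 gave 4 genes called higher in Δ225, all of mitosis, which is 10.8% of the 37; 20.8% of all genes were called in either direction and 9.96% higher. Of the 21 mitosis genes 18 had a higher estimate (median 0.37), while 10 of the 11 replication genes had a lower one (median -0.16, none called). The 4 genes were Nusap1, at 0.65 (SE 0.17, adjusted p 0.0108), Cenpe, at 0.89 (SE 0.25, adjusted p 0.0144), Mki67, at 0.86 (SE 0.29, adjusted p 0.0372), and Cenpf, at 0.74 (SE 0.26, adjusted p 0.0489). NUSAP1 bundles spindle microtubules, CENPE and CENPF act at the kinetochore, and Ki-67, the product of Mki67, is the proliferation marker that coats mitotic chromosomes. In a fit of Δ225 and Δ93 alone 1 of the 4 was called, Nusap1, at 0.67 (adjusted p 0.0348), with 18.3% of all genes.

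Nusap1 stood at 48.9, 69.7 and 84.0 CPM (lowest, median, highest) in Δ93 and at 88.9, 91.2 and 163 in Δ225, without overlap, as did 5.39% of all genes in that direction. Mki67 stood at 215, 339 and 625 in Δ93 and at 388, 507 and 1250 in Δ225, so the groups overlapped. Cenpe ranged from 51.8 to 148 in Δ93 and from 122 to 373 in Δ225, and Cenpf from 116 to 321 and from 245 to 725. The highest value of Nusap1, Cenpe, Cenpf and Mki67 in Δ225 was in each case that of replicate 1, the library with the fewest counts. Without that library Mki67 changed by 0.60 (adjusted p 0.103) and Cenpf by 0.45 (adjusted p 0.141), while Nusap1 (0.51, adjusted p 0.016) and Cenpe (0.62, adjusted p 0.030) were called together with Foxm1, Cdk1 and Aurkb, 5 in all. The share of all genes called in that fit is not given here, so the 5 cannot be set against it. The count was 2, Nusap1 and Cenpe, without Δ93 replicate 2, 3, 4 or 5 or without Δ225 replicate 3, and 0 without the libraries low in Y-linked RNA, where 546 of all genes were called. Mki67 was also lost without Δ93 replicate 6 (adjusted p 0.0567) and Cenpf without Δ225 replicate 2 (adjusted p 0.0692). Cell-type markers also differed between these groups: the 6 pre-granulosa markers were all called lower in Δ225 (summed level 65.4 to 109 CPM against 430 to 1090 in Δ93), the 5 fetal Leydig markers all higher (452 to 3040 against 50.1 to 314), 4 of 9 Sertoli markers higher (824 to 2810 against 252 to 1220) and 5 of 8 meiotic markers lower (25.6 to 265 against 215 to 1300). Their part in the result was not tested.

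Δ225 against Δ306 gave 1 gene in each direction, where 13.2% of all genes were called. Gins2 was lower, at -0.91 (SE 0.27, adjusted p 0.0295), and stood at 38.4 to 42.1 CPM in Δ306 against 6.44, 23.1 and 27.1 (lowest, median, highest) in Δ225, with no overlap. Top2a, the DNA topoisomerase that untangles sister chromatids, was higher, at 0.62 (SE 0.20, adjusted p 0.0394): it stood at 482, 443 and 392 CPM in Δ306 against 541, 598 and 940 in Δ225, again with no overlap. Of all genes 10.4% were lower and 9.82% higher without overlap. Cenpe had the third lowest p, at 0.88 (SE 0.31, adjusted p 0.0669). Neither call was kept when any 1 of the 3 Δ306 libraries was left out, with adjusted p up to 0.115 for Gins2 and 0.163 for Top2a. Top2a was also lost without Δ225 replicate 1 or replicate 3. A fit of the 2 groups alone called neither (adjusted p 0.113 for Gins2 and 0.0931 for Top2a), with 9.7% of all genes called. Pre-granulosa and fetal Leydig markers differed here too, with 6 of 6 lower and 4 of 5 higher in Δ225, and neither their part nor that of the processing noted above was tested.

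No gene of the set was called in the other comparisons between deletions. In Δ225 against Δ104, where 0.645% of all genes were called, Rrm2 had the lowest p (-0.25, adjusted p 0.622), before Cenpe (0.38, adjusted p 0.700) and Nusap1 (0.25, adjusted p 0.712). In Δ93 against Δ104 (0.0523% of all genes called) it was Cdk1 (-0.35, adjusted p 0.321), before Nusap1 (-0.39, adjusted p 0.344) and Mki67 (-0.64, adjusted p 0.352). In Δ93 against Δ306 (0.0785%) it was Tyms (-0.43, adjusted p 0.345), then Pcna (-0.31, adjusted p 0.577) and Cdk1 (-0.35, adjusted p 0.581). In Δ104 against Δ306 (0.0654%) it was Gins2 (-0.84, adjusted p 0.28), then Top2a (0.43, adjusted p 0.455) and Pcna (-0.34, adjusted p 0.471). The median SE of the 37 genes in these 4 comparisons was 0.19 to 0.23 on the log2 scale. Differences of that size were not resolved, nor were larger ones such as that of Mki67 in Δ93 against Δ104 (-0.64).

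Apart from Pcna and Gins2 in Δ306 and Gins2 in Δ225, each of the 14 replication and nucleotide genes overlapped WT in every deletion. Mcm2, whose product is a subunit of the MCM helicase and whose promoter is printed above, stood at 192, 351 and 372 CPM in WT, at 263, 236 and 236 in Δ306, and at 223, 224.8, 186 and 250 in Δ104 replicates 1 to 4. In Δ93 its lowest, median and highest values were 156, 238 and 313, and in Δ225 they were 109, 224.6 and 295. WT replicate 1 lay inside or below each of these ranges. Rrm2, the regulated subunit of ribonucleotide reductase, stood at 92.1, 130 and 123 in WT, 169, 117 and 110 in Δ306, and 118, 127, 107 and 107 in Δ104. It had lowest, median and highest values of 94.6, 117 and 138 in Δ93 and 76.2, 94.8 and 126 in Δ225, and all groups overlapped.

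E2f1, the transcription factor of S-phase entry, stood at 42.5, 60.1 and 58.2 CPM in WT, 50.7, 54.4 and 54.5 in Δ306, and 40.2, 40.9, 33.8 and 61.3 in Δ104. Its lowest, median and highest values were 40.5, 56.3 and 67.5 in Δ93 and 30.0, 49.8 and 65.0 in Δ225. Unlike Foxm1, the other regulator of the set, E2f1 overlapped WT in every deletion. Ccnb1, which encodes cyclin B1, stood at 103, 203 and 233 CPM in WT, 149, 178 and 159 in Δ306, and 157, 161, 121 and 205 in Δ104, with 57.5, 150 and 217 in Δ93 and 153, 194 and 221 in Δ225. WT replicate 1 was below all but 2 of the 19 deletion libraries for Ccnb1. Mki67 stood at 558, 656 and 549 CPM in WT, 599, 376 and 396 in Δ306 and 565, 666, 688 and 350 in Δ104, and Top2a at 462, 713 and 743 in WT and 556, 704, 567 and 534 in Δ104. For Top2a the Δ93 values were 387, 526 and 614 (lowest, median, highest).

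Another 19 members were called in none of the 11 comparisons between groups, that of Meis1 KO against WT included. Among mitosis genes these were the cyclin genes Ccna2 and Ccnb2, the anaphase genes Cdc20 and Ube2c, the kinase genes Plk1, Aurka and Bub1, the survivin gene Birc5, and the kinesin genes Kif11, Kif20a and Kif23. Among replication genes they were Mcm4, Mcm5, Mcm6 and Mcm7 of the helicase, the licensing factor gene Cdt1 and the helicase cofactor gene Cdc45, and among nucleotide genes Rrm1, the large reductase subunit, and Tyms, thymidylate synthase. Plk1, whose kinase acts from mitotic entry to cytokinesis, came nearest to the threshold. It stood at 66.6, 111 and 112 CPM in WT, 64.2, 59.5 and 55.6 in Δ306, and 33.7 to 85.0 in Δ93, with estimates of -0.69 in both (adjusted p 0.132 in Δ306 and 0.0503 in Δ93). All 3 Δ306 libraries lay below WT, while those of Δ93 spanned WT replicate 1. Kif20a stood at 78.5, 122 and 123 CPM in WT against 78.9, 73.0 and 75.2 in Δ306 and 36.5 to 98.7 in Δ93, with -0.51 (adjusted p 0.246) and -0.55 (adjusted p 0.0939). Ube2c, the ubiquitin-conjugating enzyme of the anaphase-promoting complex, had -0.51 in Δ93 (adjusted p 0.115) and Aurka, aurora kinase A, -0.54 (adjusted p 0.111). Ccnb2, the partner of Cdk1 beside cyclin B1, had 0.00 in Δ93 (SE 0.21) and 0.09 in Δ306 (SE 0.24), unlike Cdk1 itself in sign or size, but the difference between the genes was not tested. Among helicase genes, Mcm6, whose promoter with 3 E2F matches is printed above, had 0.11 in Δ93 (SE 0.17) and 0.05 in Δ306 (SE 0.19), and Mcm5 had -0.47 in both Δ104 (SE 0.25) and Δ225 (SE 0.23).

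Over all 37 genes the estimates against WT ran from -0.69 to 0.43 in Δ306, from -0.91 to 0.49 in Δ93, from -0.62 to 0.19 in Δ104 and from -0.63 to 0.56 in Δ225. The highest estimate in Δ93, 0.49, was that of Bub1, whose highest library was Δ93 replicate 4 at 204 CPM. Counts of Ccnb1, Ccnb2, Pcna and Tyms may share reads with annotated pseudogenes, and 10 members (Ccna2, Cdc20, Kif20a, Nusap1, Ube2c, Mcm7, Gins2, Cdc45, Cdt1 and Foxm1) overlap another annotated gene, while the strand setting of the counting is not given in the sources used here.

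In Meis1 KO no gene of the set was called against WT (0 of 37, where 1.8% of 16791 genes were called), and 18 estimates were higher and 19 lower, with a median of 0.00 and a range of -0.33 to 0.25. The lowest p values were those of Mki67, at -0.33 (SE 0.10, adjusted p 0.133), Foxm1, at -0.19 (SE 0.06, adjusted p 0.141), and Kif23, a kinesin of cytokinesis, at -0.21 (SE 0.09, adjusted p 0.269). Mki67 stood at 524, 489, 437 and 524 CPM in Meis1 KO against 591, 695 and 573 in WT, and Foxm1 at 92.2, 93.7, 93.2 and 98.0 against 103, 112 and 108, with no overlap for either, as was the case for 7.43% of all genes in that direction. DESeq2 called these 2 genes lower, and 9.25% of all genes. Ccnb1 stood at 146 to 184 CPM in Meis1 KO against 99.8, 192 and 220, and Top2a at 591 to 707 against 494, 763 and 786, inside the WT range. Mcm2 stood at 267 to 338 CPM in Meis1 KO, inside the WT range of 206 to 393, and so did E2f1 (52.8 to 71.4 against 46.2 to 65.8) but for 1 library and Rrm2 (126 to 161 against 98.4 to 139) but for 2. This table holds the same 3 WT samples, and WT replicate 1 was again the low library. Some of their values differ between the 2 tables: the WT mean of Pcna was 127 CPM in that of all deletions and 178 here. For the CDK inhibitor gene Cdkn1c the WT means were 103 and 226 CPM. Without WT replicate 1, 10 of the 37 genes were called lower: Mki67, Foxm1, Kif23, Bub1b, Tpx2, Plk1, Mcm2, Mcm3, Mcm6 and Cdc45, with estimates of -0.44 to -0.22. That fit called 2204 genes in all, counting both directions, and the median over the 37 was -0.21. The share of all genes called lower is not given here, so the 10 cannot be set against it. Summed pan-germ-cell markers were 304 to 587 CPM in Meis1 KO against 22.6, 591 and 869 in WT, and their part was not tested.

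Within genotypes, no gene of the set was called for a slope on the level of Fgf9 (log2 CPM, centred within each group) in an edgeR fit of all 22 libraries. At an unadjusted p under 0.05 there were 2 of 37, Ccnb2 and E2f1, and 8.13% of all genes. Of 22940 genes 0.641% were called, and none was without Δ225 replicate 3, the library with 16.5 CPM of Fgf9. The lowest adjusted p in the set was 0.562, that of Ccnb2, at -0.29 per log2 unit of Fgf9 (SE 0.13). Slopes ran from -0.35 to 0.31, with 16 above and 21 below 0.

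Other genes of the cell cycle outside the 37 were described from 4 further lists. Among 10 CDK inhibitor and D-type cyclin genes, 3 were called higher in Δ93 against WT, as were 7.23% of all genes: Cdkn1b, which encodes the inhibitor p27, at 1.63 (SE 0.29, adjusted p 0.00147), Cdkn1c (p57) at 1.49 (SE 0.40, adjusted p 0.0171) and Cdkn1a (p21) at 1.57 (SE 0.52, adjusted p 0.0491). Cdkn1b stood at 62.1, 59.2 and 60.6 CPM in WT, at 116, 135 and 180 in Δ306, and at 132, 182 and 270 (lowest, median, highest) in Δ93. It stood at 63.5 to 191 in Δ104 and 58.9 to 85.4 in Δ225. Cdkn1c stood at 94.5 to 109 CPM in WT, 268 to 318 in Δ306 and 242 to 334 in Δ93. In the Meis1 table the same WT samples had 193 to 277 CPM of Cdkn1c, so its WT level differed with the table. The part of this in the Cdkn1c calls was not tested. In Δ306, Cdkn1b (1.24, SE 0.31, adjusted p 0.0219) and Cdkn1c (1.47, SE 0.44, adjusted p 0.049) were called higher, as were 2.96% of all genes. Δ225 had lower Cdkn1b than Δ93, at -1.42 (SE 0.22, adjusted p 0.000173), with 4 of the 10 genes and 10.8% of all genes called lower, among them Ccnd1, which encodes cyclin D1, at -1.20 (SE 0.25, adjusted p 0.00197). The Δ93 call of Cdkn1b was kept with any 1 library left out, but not without the libraries low in Y-linked RNA (1.49, adjusted p 0.0563). That of Cdkn1c was lost without any 1 WT library (adjusted p 0.061 to 0.078), that of Cdkn1a without any 1 WT library or Δ93 replicate 2, 3, 4 or 5 (adjusted p 0.064 to 0.165), and the Δ306 call of Cdkn1b without Δ306 replicate 2 or 3 or any 1 WT library (adjusted p 0.078 to 0.152). The Δ306 call of Cdkn1c was lost with any 1 library left out (adjusted p 0.098 to 0.160).

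Of 35 further mitosis genes, 6 (17.1%) were called lower and none higher in Δ93 against WT (median -0.35), beside 6.84% of all genes called lower. The lowest p values were those of Racgap1, of the cytokinesis complex centralspindlin, at -0.66 (SE 0.14, adjusted p 0.00456), Dlgap5, a spindle protein gene, at -0.77 (SE 0.19, adjusted p 0.0096), and the condensin genes Ncaph, at -0.61 (SE 0.16, adjusted p 0.0131), and Ncapd2, at -0.57 (SE 0.16, adjusted p 0.02). Racgap1 kept its call with any 1 library left out, but not without those low in Y-linked RNA (-0.73, adjusted p 0.077). Dlgap5 lost it without WT replicate 3, and Ncaph and Ncapd2 without WT replicate 2 or 3. In Δ225 against Δ93, 11 of the 35 (31.4%) were called higher, beside 9.96% of all genes, with the kinetochore genes Nuf2 (0.69, adjusted p 0.00357) and Ndc80 (0.62, adjusted p 0.00999) first. None of the 35 was called in Δ306, Δ104, Δ225 or Meis1 KO against WT.

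Of 28 further S-phase genes, 1 was called in Δ93 against WT, Orc1, the largest subunit of the origin recognition complex, which rose by 1.03 (SE 0.27, adjusted p 0.0157) from 7.51, 18.4 and 20.5 CPM in WT to 28.1 to 36.8. Without WT replicate 1 the change was 0.70 (adjusted p 0.109). Δ225 against Δ93 gave 3 lower, Ccne1, which encodes cyclin E1 (-0.92, adjusted p 0.00324), Orc1 (-0.93, adjusted p 0.00415) and the ligase gene Lig1 (-0.47, adjusted p 0.0215, lost without Δ93 replicate 2), where 10.8% of all genes were called lower. Δ225 against Δ306 gave 5 lower, among them Ccne1 (-1.11, adjusted p 0.00553), Rfc3 (-0.57, adjusted p 0.0112), Gmnn (-0.74, adjusted p 0.0158) and Gins1 (-0.55, adjusted p 0.0366), where 6.74% of all genes were called lower. Rfc3, Gmnn and Gins1 lost their calls without Δ306 replicate 2 or 3 (adjusted p 0.0607 to 0.196), while Ccne1 kept its call with any 1 library left out. In Meis1 KO the thymidine kinase gene Tk1 was called higher, at 0.44 (SE 0.08, adjusted p 0.0408), which was lost without any 1 library other than WT replicate 1 (adjusted p 0.085 to 0.125). Among 17 genes of the E2F, RB and MuvB families, Tfdp2 (0.61, adjusted p 0.00704), a partner of E2F proteins, and E2f5 (0.43, adjusted p 0.0199) were called higher and E2f6 (-0.44, adjusted p 0.0183) lower in Δ93 against WT. Of all genes 14.1% were called there in either direction. The call of E2f5 was lost without WT replicate 1 or 2 and that of E2f6 without any 1 WT library. E2f5 was also called higher in Δ306 (0.59, adjusted p 0.0146), lost without Δ306 replicate 2 or 3 or WT replicate 1 or 2. In Δ306 6.43% of all genes were called in either direction. In Δ225 against Δ93, 6 of the 17 were called higher and 2 lower, where 9.96% of all genes were called higher and 10.8% lower. Among the 6 were Rbl1 (adjusted p 0.00492) and E2f8 (adjusted p 0.0129). Δ225 against Δ306 gave 1 of the 17, lower. Lin54 was not tested in the Meis1 table, which left 16 of the 17 genes there, with none called.

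Germ-cell markers and the mitosis genes were set side by side in each library. WT replicate 1, with 19.2 CPM of summed pan-germ-cell markers, was the lowest WT library for 35 of the 37 genes, the exceptions being Mki67 and Gins2. Elsewhere the lowest sum was 159 CPM, in Δ104 replicate 3, whose mitosis level was -0.27, equal to that of Δ104 replicate 1 with 732 CPM. For replication genes Δ104 replicate 3 was lower, at -0.45 against -0.24 in replicate 1, and for all 37 genes at -0.33 against -0.27. The 2 libraries with the lowest mitosis levels, Δ93 replicates 4 and 5 at -0.91 and -0.82, had 856 and 559 CPM. The part of germ cells in these levels was not tested.

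**Figure D4:**
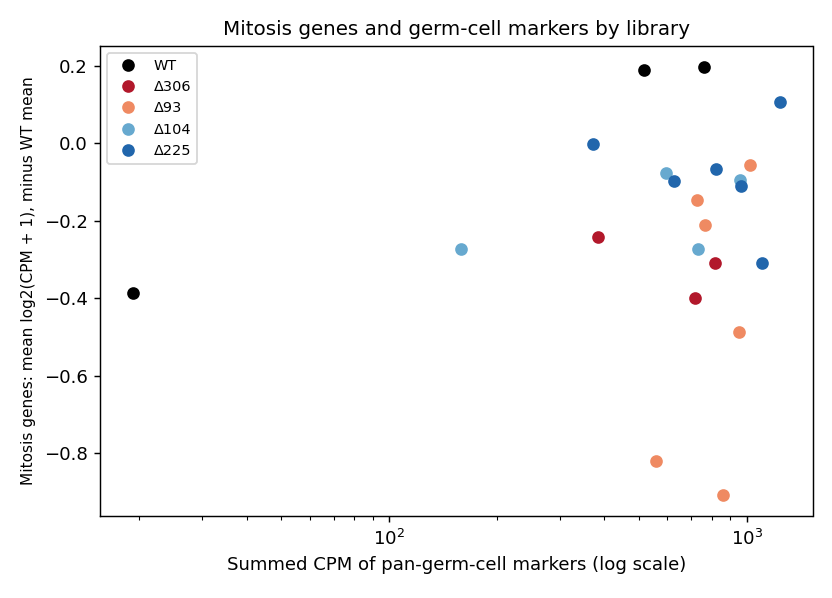
Level of the 21 mitosis genes (mean log2(CPM + 1) minus the WT mean, vertical axis) against the summed CPM of 6 pan-germ-cell markers (log scale, horizontal axis) in each library of WT and the 4 deletions. WT replicate 1 lies alone at 19.2 CPM, and the 2 lowest libraries, both Δ93, lie at 559 and 856.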

How the data were processed

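Counts per gene were deposited by the authors as whole numbers in 3 tables, and the table of all deletions (57186 genes, 22 libraries) and the Meis1 table (31053 genes, 7 libraries, with the same 3 WT samples) gave the results, while the first table served as an alternative for Δ306. Per the submitters' processing notes reads were aligned to mm10, with STAR 2.7.10a and featureCounts listed for WT and Δ306 and STAR without a version for the other groups. Whether strand was used in counting is not given in the sources used here. The mutant columns of the first table carry only the name fgf9 and were taken as Δ306 because the series design lists that group. Gene positions are from GENCODE M21 on GRCm38.

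Genes were filtered with filterByExpr, scaled by TMM and tested with edgeR 4.0.16 (R 4.3.3) by the quasi-likelihood F-test in 1 fit per table (residual degrees of freedom 17 and 5), with Benjamini-Hochberg adjustment over all genes tested. Calls used an adjusted p under 0.05. SE is the unshrunk log2 fold change over the square root of F. The procedure was tested on simulated data. CPM are relative to TMM-scaled library sizes. The members and lists were chosen with earlier results of these data known. Text names the 3 members with the lowest p per comparison, the called members, fixed examples per role, and at most 4 genes of each other list. DESeq2 1.42.0, other scalings and filters, a replicate block, and leaving out libraries were tried. Any 2 libraries of 1 group differed by at least 9.65 in mean chi-square per gene, so none was a duplicate. Same-numbered libraries had correlated deviations above 0.1 in every pair only for Δ225 and Δ104 (0.11 to 0.38), and over the 11 pairs of groups correlations ran from -0.47 to 0.54. The labels tie no number to a litter or day.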

Additional observations from a re-analysis of the deposited data

Results flagged for a closer look

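In groups of 4 to 10 libraries the highest or lowest library was set against the others by Dixon's criterion. Of 148 sets of 1 gene and 1 group, 6 held a library far from the others, and chance alone marks about 1 in 20. All 6 were in Δ225. Replicate 1, the library with the fewest counts, was high for Cenpe (373 CPM against 122 to 200), Cenpf (725 against 245 to 344) and Nusap1 (163 against 88.9 to 114). It was low for Gins2 (6.44 CPM against 19.6 to 27.1) and Foxm1 (47.6 against 77.2 to 89.8). Replicate 2 was low for Plk1 (43.5 CPM against 68.6 to 82.9).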

How the results depend on the processing

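Over all settings no value changed direction past the threshold, and medians of the members against WT kept their sign in Δ306 (-0.43 to -0.16 with 1 library left out), Δ225 (-0.36 to -0.10), Δ104 (-0.42 to -0.14) and Δ93 (-0.47 to -0.20), but not in Meis1 KO (-0.21 to 0.08). The counts of members called moved more. In Δ306 against WT the count was 0, and 2 by DESeq2, 6 with the groups fitted alone, 3 in the first table, 8 without WT replicate 1, Δ225 replicate 1 and Δ93 replicate 4 together, and 0 to 1 with 1 library left out. In Δ93 against WT it was 5, and 0 without the libraries low in Y-linked RNA and 0 to 6 with 1 left out. In Δ225 against Δ93 it was 4, and 2 without a composition factor, 0 without the libraries low in Y-linked RNA, 1 with the groups fitted alone and 2 to 5 with 1 left out. In Δ225 against Δ306 it was 2, and 1 with no filter on low counts, 1 with the gene length trend removed, 5 without the 3 libraries together, 0 without those low in Y-linked RNA, 0 with the groups alone and 0 to 3 with 1 left out, and its median ran from 0.0013 to 0.18. In Δ104 against Δ306 it was 0, and 1 without the 3 libraries together, with medians of -0.060 to 0.14 when 1 was left out. In Meis1 KO it was 0, and 2 by DESeq2 and 0 to 10 with 1 left out. The removal of the length trend and of the 3 libraries together were chosen after seeing the data. Apart from settings with fewer libraries, the cause was not tested. With the replicate number as a block, the count in Δ225 against Δ306 was 4 and in Δ93 against WT 4, while over all genes calls went from 48 to 1638 in Δ225, 14 to 470 in Δ104 and 303 to 32 in Meis1 KO against WT, and from 148 to 2 in Δ225 against Δ104. For Δ225 against Δ306 and Δ93 against WT the share of all genes called with the block is not given here. Counts of members stated here without such a share describe only how the count moved. In Δ225 against Δ104 no member was called with or without the block. Elsewhere the block added calls of Mki67 and Cenpe in Δ225 against Δ306, and Tpx2 lost its call in Δ93 against WT. The WT group has 3 libraries, and the depth is 11582619 counts or more per library.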
